A study of Mus musculus with 12 samples.

Results

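The genes described here encode the MHC class II antigen presentation machinery of the mouse and its master regulator. They are H2-Aa, H2-Ab1, H2-Eb1, Cd74, H2-DMa, H2-DMb1, H2-Oa, H2-Ob and Ciita, 9 of the 31053 genes counted. The 9 were chosen by symbol, with earlier results of these data known. Single-cell libraries of 3 sources were compared: Tracheal allograft, Native trachea and Spleen. The allograft is a trachea transplanted between animals that are not genetically identical, and the native trachea was not transplanted. The series title places the study in obliterans bronchiolitis after transplantation, a fibrotic closure of the airways, and in the mononuclear phagocyte system. Each source is listed with 4 samples, 12 in all, but its 4 samples share 1 matrix whose barcodes carry a single suffix, so each source is 1 pooled library here. Mouse strain, age, sex, time after transplantation and any treatment are not in the labels, and donor and host cells cannot be told apart in the allograft library.

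MHC class II molecules show peptides from engulfed proteins to CD4+ T cells. H2-Aa and H2-Ab1 encode the alpha and beta chains of I-A, and H2-Eb1 the beta chain of I-E. Cd74 encodes the invariant chain, which blocks the peptide groove until the molecule reaches an endosome. There H2-DM, made of the products of H2-DMa and H2-DMb1, exchanges the last fragment of the invariant chain for peptide, and H2-O, made of those of H2-Oa and H2-Ob, restrains H2-DM. Ciita encodes the coactivator that switches these genes on. Dendritic cells and B cells express it constitutively, while many other cells, fibroblasts among them, do so only after exposure to interferon gamma. T cells of the mouse are known to lack class II transcripts, so T cells of the same library serve below as a measure of free RNA, the transcripts of other cells that enter every droplet.

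In the genome build mm10, 7 of the 9 genes lie within 224.3 kb of chromosome 17, between 34092340 and 34316674. Ciita lies on chromosome 16 (10480059 to 10528418), and Cd74 on a chromosome of its own. CIITA does not bind DNA itself. It joins the RFX, CREB and NF-Y complexes that sit on the X and Y boxes of class II promoters. RefSeq promoter windows of build GRCm38.p6, 250 bases before to 50 after the start site, were used for 6 of the 9 genes. H2-Ab1 and Ciita had no window in the source used, and Cd74 was left out of the search. The windows were searched on both strands for the Y box letters TGATTGG, the X box letters GCAAC and GATGATG, and TGACGTCA, the site of CREB family factors. Of these 6 genes, 5 held TGATTGG on the gene's own strand, 45 to 63 bases before the start, and H2-DMa did not. In 4 of them GCAAC lay 23 to 26 bases upstream of TGATTGG. Among all 32851 windows, 4.01% held TGATTGG on the gene's strand, 7.82% on either strand, and 0.167% held GCAAC 15 to 45 bases before it on the gene's strand. The 4 stretches are shown because they carry the element these genes have in common, with the matched letters in capitals, 5′ to 3′ on the strand of the gene.
H2-Aa (chr17:34287855-34287918, minus strand): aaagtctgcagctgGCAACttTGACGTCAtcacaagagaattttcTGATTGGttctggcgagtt
H2-Eb1 (chr17:34305761-34305824, plus strand): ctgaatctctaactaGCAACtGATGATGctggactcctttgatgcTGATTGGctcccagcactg
H2-Oa (chr17:34092289-34092340, plus strand): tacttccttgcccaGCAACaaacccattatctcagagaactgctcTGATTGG
H2-Ob (chr17:34238801-34238864, plus strand): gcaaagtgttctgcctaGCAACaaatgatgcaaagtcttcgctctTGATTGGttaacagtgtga
H2-Eb1 joined GCAAC to GATGATG after a single base, and H2-Aa joined it to TGACGTCA after a pair of bases. H2-DMb1, and H2-DMb2, a near-identical copy of H2-DMb1 that is not among the 9 genes, held GATGATG and TGATTGG but no GCAAC before them. A match of letters is a description and does not show binding.

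The 3 libraries held 26503045 (allograft), 31415458 (native) and 28318436 (spleen) unique molecular identifiers (UMIs, counted transcript molecules). After the cell filter 3858, 4148 and 4573 cells were used. Among all deposited barcodes, before the filter, each pair of libraries shared between 4 and 7. Cells were assigned to classes by marker genes. The labels name the trachea cells mesenchymal progenitors, but the mesenchymal gate took 27 allograft and 737 native cells without Ptprc, the leukocyte gene CD45, and 4 and 31 with it, against 2047 and 1687 mononuclear phagocytes. Cells that passed several gates (533, 673 and 367) were set aside. How the cells were isolated is not in the labels. With 1 library per source there is no replicate and no test, so a difference is one between 2 libraries. Intervals in parentheses after a value are 95% intervals of counting error only.

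Most class II transcripts of both trachea libraries were in phagocytes, and most of those of the spleen in B cells. Phagocytes held 75.9% of the UMIs of H2-Aa, H2-Ab1, H2-Eb1 and Cd74, summed, in the allograft and 60.5% in the native library. Dendritic cells held 2.54% and 8.98% of them. In the spleen, B cells held 74.0%, dendritic cells 3.98% and phagocytes 3.52%. The H2-O genes were spread over more classes. Of the H2-Oa UMIs of trachea, dendritic cells, 40 allograft and 94 native cells, held 26.7% and 32.0%, and B cells, 28 and 49 cells, held 13.5% and 11.5%. Phagocytes held 17.5% and 13.7% of them. For H2-Ob phagocytes held more, 39.2% and 31.9%, against 20.8% and 18.6% in dendritic cells and 10.98% and 12.2% in B cells.

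**Figure D1:**
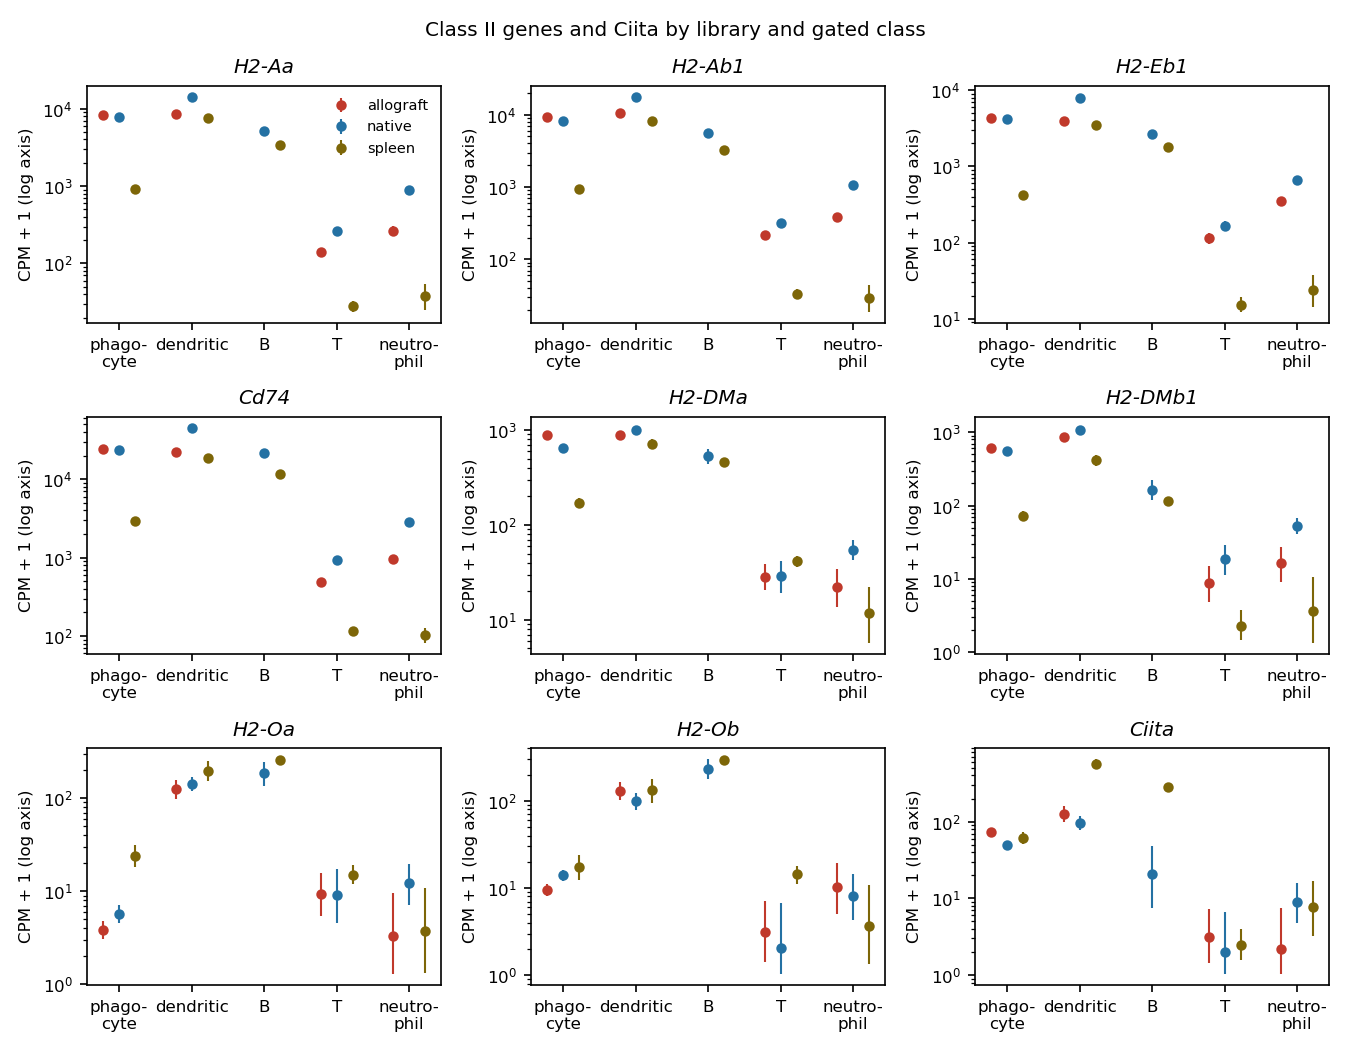
Level of each gene (CPM, its UMIs per 1000000 UMIs of the class, plus 1, on a log axis) in 5 gated classes of the 3 libraries, with 95% counting intervals. Classes with fewer than 30 cells in a library are left out. The 4 abundant genes and the H2-DM genes are lower in spleen phagocytes than in trachea phagocytes, and H2-Oa and H2-Ob are highest in B and dendritic cells.

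In mononuclear phagocytes, the levels of the antigen-presenting chains were close in the 2 trachea libraries. H2-Aa stood at 8362 UMIs per 1000000 UMIs of the class (CPM) in the allograft, 7927 in the native and 908 in the spleen library. H2-Ab1 stood at 9422, 8146 and 942 CPM, and H2-Eb1 at 4367, 4243 and 417 CPM in the same order. For Cd74 the levels were 24424, 23479 and 2933 CPM. Of these libraries the spleen stood apart, and the trachea libraries differed by far less. The ratios of allograft over native were 1.05 (1.05 to 1.06) for H2-Aa, 1.16 (1.15 to 1.17) for H2-Ab1, 1.03 (1.02 to 1.04) for H2-Eb1 and 1.04 (1.04 to 1.05) for Cd74. Scaling by the median of gene ratios, which moves all log2 ratios of phagocytes by 0.11, put H2-Aa, H2-Eb1 and Cd74 on the other side of 1, at log2 ratios of -0.03, -0.07 and -0.05.

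The H2-DM genes and Ciita were also higher in allograft phagocytes. H2-DMa stood at 882 and 653 CPM, a ratio of 1.35 (1.31 to 1.39), and H2-DMb1 at 607 and 546 CPM, a ratio of 1.11 (1.08 to 1.15). Ciita stood at 71.2 and 47.9 CPM, from 1112 and 559 UMIs, a ratio of 1.49 (1.34 to 1.65). H2-Oa and H2-Ob were scarce, with 44 and 132 UMIs in the allograft against 55 and 151 in the native library. They were 1.67-fold (1.10 to 2.54) and 1.53-fold (1.20 to 1.95) lower in the allograft, and H2-Oa was on the other side of 1 with stricter gates (log2 ratio 0.14) and after thinning (0.13). In phagocytes 0 of the 9 genes were 2-fold or more apart between the trachea libraries, where 16.4% of all 13462 genes with 10 or more UMIs were. Their median log2 ratio was 0.077, beside 0.09 over all genes. Over all cells of the libraries the median was 0.46, beside 0.01 over all 16486 genes, and again 0 of 9 passed 2-fold, where 26.8% of all genes did.

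Against spleen phagocytes, which serve both comparisons, 6 members were 2-fold or more higher and 1 was lower in each trachea library. The backgrounds were 18.4% higher and 23.5% lower for the allograft, and 19.6% and 28.2% for the native library. The 6 were H2-Aa, H2-Ab1, H2-Eb1, Cd74 and the H2-DM genes. H2-Aa was 9.20-fold (8.79 to 9.64) higher in the allograft and 8.72-fold (8.34 to 9.14) in the native library. H2-Oa was the lower one, 8.20-fold (5.34 to 12.7) in the allograft and 4.92-fold (3.27 to 7.37) in the native library. The spleen value rests on 48 UMIs in 20 of 513 phagocytes, and 81.2% of them were in 2% of the cells. Ciita was 2-fold or more apart in neither comparison. The phagocytes of the libraries differed in kind. Cells with 2 or more UMIs of Ace and Treml4, genes of nonclassical monocytes, were 385 of 513 in the spleen. In the allograft they were 41 of 2047 and in the native library 35 of 1687. H2-Aa stood at 692 CPM in the spleen ones and 1474 CPM in the 128 other spleen phagocytes. The part of these subsets in the ratios was not tested.

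The near-equal sums hid a different spread over cells. To compare cells of unequal depth, each was thinned to 1500 UMIs, and the UMIs of H2-Aa, H2-Ab1, H2-Eb1 and Cd74 were added. In the allograft 93.6% of phagocytes (92.5 to 94.7, 1836 of 1961) held 10 or more such UMIs of the 1500. In the native library the share was 71.7% (69.4 to 73.8, 1178 of 1644), and in the spleen 12.3% (9.51 to 15.7, 58 of 470). T cells of the same libraries gave 0.623%, 1.82% and 0.0956%. Median depth before thinning was 6516, 6482 and 3524 UMIs in phagocytes and 3839, 3478.5 and 4245 in T cells. With the threshold at 5 of 1500 UMIs the trachea shares were 96.8% and 76.5%, and with 20 of 1500 they were 89.0% and 64.7%.

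Native phagocytes ranged from cells at the background of T cells to cells above most of the allograft. Expressed per 10000 UMIs of the cell, the lower quartile, median and upper quartile were 293, 493 and 653 in the allograft. They were 40, 333 and 707 in the native library. The native upper quartile thus lay above the allograft one, while its lower quartile was far below. In spleen phagocytes the quartiles were 0, 6.67 and 20, and the highest cell reached 687.

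**Figure D2:**
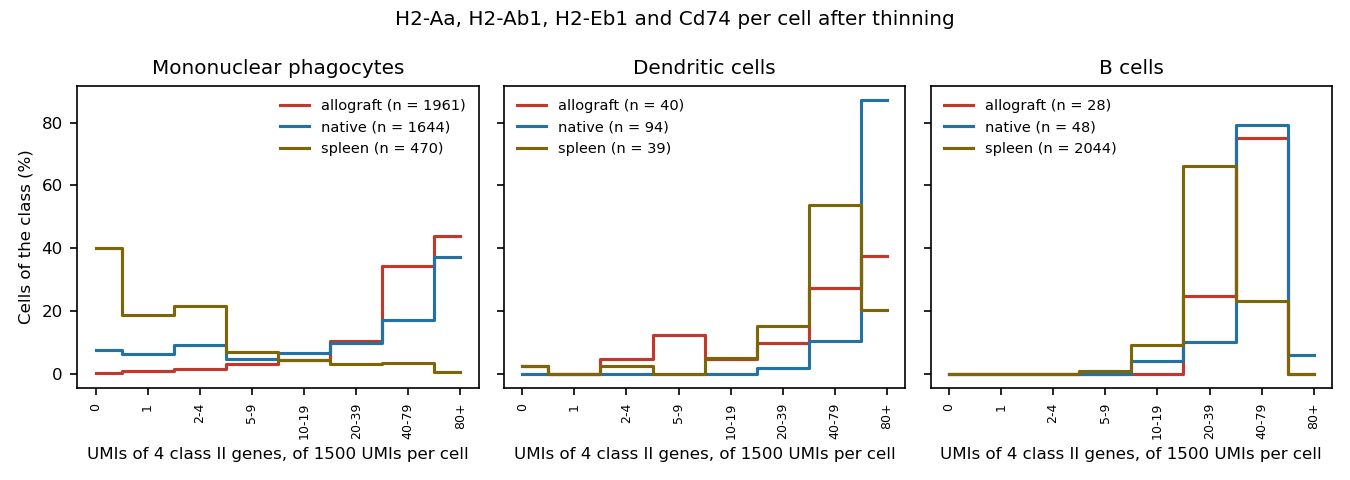
Share of cells (%) by the number of UMIs of H2-Aa, H2-Ab1, H2-Eb1 and Cd74 among 1500 UMIs per cell, for phagocytes, dendritic cells and B cells of the 3 libraries. Native phagocytes spread over all bins, spleen phagocytes gather at 0 to 4, and 93.6% of allograft phagocytes hold 10 or more.

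Phagocytes were also split by genes that mark known subsets. Lyve1 and Cd163 mark resident macrophages of vessels and connective tissue. Cells with 2 or more UMIs of the pair numbered 816 of 1687 in the native and 45 of 2047 in the allograft library. In the native library these cells had a median of 120 class II UMIs per 10000, against 593 in the remaining 871 phagocytes. In the allograft the medians were 310 and 493. The share of cells with 10 or more of 1500 UMIs was 60.0% and 82.9% within and outside the native subset, and 93.2% and 93.6% in the allograft, so the trachea libraries also differed outside the subset.

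Other phagocyte subsets of the allograft were spread around its median. Cells with 2 or more UMIs of Cxcl9, a chemokine gene induced by interferon gamma, numbered 303 and had a median of 580 class II UMIs per 10000, against 473 in the others. Cells with 5 or more UMIs of Gpnmb, Spp1 and Mmp12, genes of macrophages in scars, numbered 482 and had a median of 327, against 533 in the others. In the native library the order was the other way, with 687 in 81 such cells and 320 in the others. Of the allograft Cxcl9 cells, 99.3% had 10 or more of 1500 UMIs. Cells with Ace and Treml4, genes of nonclassical monocytes, had low medians in all 3 libraries. Cells with 2 or more UMIs of that pair had medians of 46.7 (41 allograft cells), 13.3 (35 native cells) and 6.67 (385 spleen cells) class II UMIs per 10000. They made up 385 of the 513 spleen phagocytes, and the 128 others had the same median. The allograft ones were mixed, with an upper quartile of 400 and 17 of 40 thinned cells (42.5%) at 10 or more of 1500 UMIs. Cells with 5 or more UMIs of Ly6c2, a gene of classical monocytes, had medians of 497 (68 allograft cells), 13.3 (13 native cells) and 0 (41 spleen cells).

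Dendritic cells, the most potent presenters to naive T cells, were higher in the native than in the allograft library for the antigen-presenting chains and Cd74. Cd74 (chromosome 18, 60803848 to 60812652) stood at 21964 CPM in the allograft, 44881 in the native and 18678 in the spleen library, and H2-Eb1 at 3995, 8006 and 3500 CPM. In these levels the allograft cells lay nearer to the spleen cells than to the native ones. Cd74 was 2.04-fold (2.002 to 2.09) and H2-Eb1 2.003-fold (1.91 to 2.10) lower in the allograft than in the native library, the 2 of 9 genes past 2-fold, where 7.74% of all 7356 genes were that much lower. H2-Aa was 1.66-fold (1.60 to 1.72) and H2-Ab1 1.65-fold (1.60 to 1.70) lower. H2-DMb1 was 1.27-fold (1.14 to 1.43) lower, and the intervals of H2-DMa, H2-Oa, H2-Ob and Ciita held 1. The median log2 ratio of the 9 was -0.35, beside 0.31 over all genes. Between native and spleen dendritic cells, 5 of the 9 were 2-fold or more apart, a share near the 47.0% of all genes. H2-Ab1, H2-Eb1, Cd74 and H2-DMb1 were higher in the native cells and Ciita was lower. These values rest on 40 and 94 cells.

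Every native dendritic cell carried much class II RNA, and the allograft cells did not all do so. The 94 native cells held from 133 to 1473 class II UMIs per 10000 after thinning, with a median of 867. The 40 allograft cells held from 0 to 887, with a median of 453, and 8 of them had fewer than 10 of 1500 UMIs. In the native library 44 of the 94 cells had only the 2 distinct markers that the gate needs, against 7 of 40 in the allograft. The 39 spleen cells had a median of 373. Subsets differed in number between the libraries. Cells with 2 or more UMIs of Cd209a, a lectin gene of conventional type 2 and monocyte-derived dendritic cells, numbered 65 of 94 in the native and 5 of 40 in the allograft library, and the native ones had a median of 953 per 10000. Cells with 2 or more UMIs of Xcr1 and Clec9a, genes of type 1 dendritic cells, numbered 18 in the allograft and 19 in the native library. Their medians, 573 and 640, were close. All 18 allograft ones had 10 or more of 1500 UMIs, and 14 of the other 22 allograft dendritic cells did. Cells with a UMI of Ccr7 and 2 or more of Fscn1 and Ccl22, genes of mature dendritic cells, had a median of 223 in the allograft (20 cells) and 867 in the native library (27 cells). The part of the subset numbers in the class difference was not tested.

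**Figure D3:**
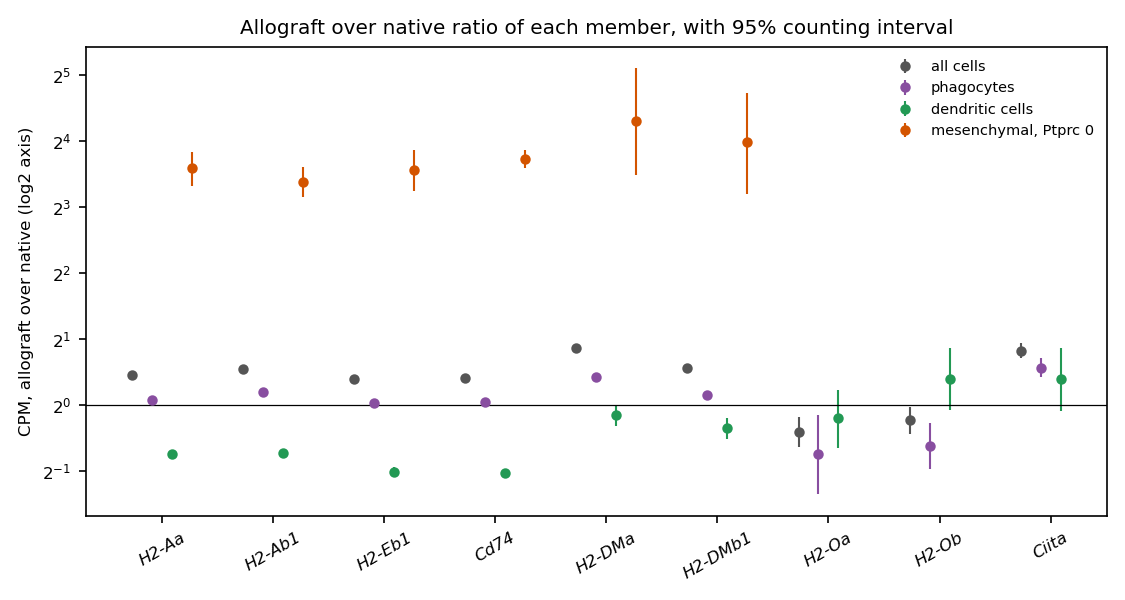
Ratio of CPM, allograft over native, of each gene on a log2 axis, with 95% counting intervals, over all cells and within 3 classes (genes with 10 or more UMIs). Phagocyte ratios lie near 1, dendritic ratios of the 4 abundant genes below 1, and the 6 ratios of mesenchymal cells without Ptprc between 10.4 and 19.8.

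B cells of the spleen formed a narrow distribution. Among 2044 thinned cells the quartiles were 173, 220 and 260 class II UMIs per 10000, and 98.7% had 10 or more of 1500 UMIs. H2-Aa stood at 3435 CPM, Cd74 at 11541, H2-Oa at 255, H2-Ob at 292 and Ciita at 279. The 49 native trachea B cells were 1.52-fold (1.43 to 1.60) higher for H2-Aa and 1.85-fold (1.80 to 1.90) for Cd74. Of the 9 genes 1 was 2-fold or more lower in them, Ciita, 12.7-fold (5.97 to 43.0), where 22.2% of all genes were. Plasma cells, which shut down Ciita through the repressor Prdm1 as they mature, were lower and more spread. The 110 spleen plasma cells had a median of 66.7 per 10000, with quartiles of 33.3 and 132. Prdm1 stood at 60.5 CPM in them and at 2.11 in B cells. Their Ciita level was 55.2 CPM and their H2-Aa level 1042 CPM.

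H2-O and H2-DM were balanced differently in each class. In spleen B cells the UMIs of H2-Oa and H2-Ob numbered 94.5 (91.3 to 97.9) per 100 of H2-DMa and H2-DMb1. In dendritic cells they numbered 14.6 (12.1 to 17.5) per 100 in the allograft, 11.6 (10.0 to 13.4) in the native and 28.9 (23.0 to 36.0) in the spleen library. In phagocytes they numbered 0.757 (0.649 to 0.878), 1.47 (1.27 to 1.69) and 16.3 (12.7 to 20.6). The order of B cells, dendritic cells and phagocytes was the same in the native and spleen libraries, and dendritic cells were above phagocytes in all 3. The ratio compares classes and not the levels of the genes with each other. H2-DMb2 is not in the H2-DM sum, and spleen B cells held 3538 UMIs of it beside 1307 of H2-DMb1. The size of the contrast between classes thus depends on whether it is counted. The 28 allograft B cells held 71 UMIs of H2-O and 86 of H2-DM, and the 49 native ones 104 and 173. In spleen phagocytes the ratio stands beside 90.1 CPM of summed B cell markers, against 22.7 and 11.3 CPM in the trachea phagocytes, and the part of B cell RNA in it was not tested.

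The 2 genes of H2-O did not always go together. The 16 plasmacytoid dendritic cells of the spleen held 13 UMIs of H2-Oa and 0 of H2-Ob, beside 60 of H2-DMa. Spleen B cells with 2 or more UMIs of Cr2, a complement receptor gene, numbered 1074 and had 275 CPM of H2-Oa and 253 of H2-Ob, and the other 986 had 230 and 341. The DM beta genes were also used differently by class. For each 100 UMIs of H2-DMb1 there were 271 of H2-DMb2 in spleen B cells and 198 in native B cells. There were 6.04, 9.37 and 35.6 in phagocytes of allograft, native and spleen, and 7.64, 12.7 and 26.1 in dendritic cells. Counting may confuse such similar copies, so the split between them is uncertain.

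Ciita was highest in the spleen, in its dendritic cells and B cells. In dendritic cells it stood at 126 (97.7 to 159) CPM in the allograft, 95.6 (76.5 to 118) in the native and 569 (490 to 658) in the spleen library. In phagocytes the levels were 71.2, 47.9 and 60.2 CPM, and 72% of the Ciita UMIs of spleen phagocytes were in 2% of the cells. Native B cells held 5 UMIs in 49 cells, or 20.02 (6.50 to 46.7) CPM, against 279 (269 to 289) in the spleen. Levels of Ciita thus did not follow the class II levels from one library to another. Per 10000 UMIs of the 4 abundant genes, phagocytes had 15.3 (14.4 to 16.2) Ciita UMIs in the allograft, 10.9 (10.0 to 11.9) in the native and 116 (96.3 to 138) in the spleen library. Dendritic cells had 28.0 (21.7 to 35.5), 11.3 (9.07 to 14.0) and 150 (129 to 174), and spleen B cells 140 (135 to 145). In T cells Ciita was near 0, with 3, 1 and 7 UMIs in 337, 170 and 1059 cells.

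**Figure D4:**
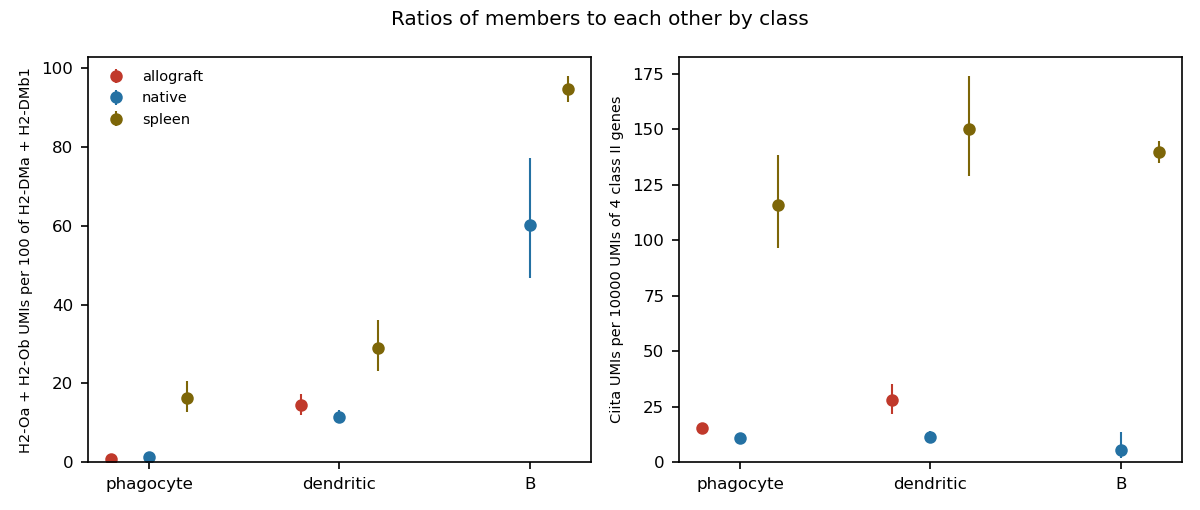
Left, UMIs of H2-Oa and H2-Ob per 100 UMIs of H2-DMa and H2-DMb1. Right, Ciita UMIs per 10000 UMIs of the 4 abundant class II genes. Points are classes of 30 or more cells in each library, with 95% counting intervals. The left ratio is lowest in trachea phagocytes (0.757 and 1.47) and highest in spleen B cells (94.5), and the right one is highest in the 3 spleen classes.

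In phagocytes, cells with a Ciita UMI carried more class II RNA. Among thinned native phagocytes, the 90 with a Ciita UMI had a median of 109 class II UMIs of 1500, and the 1554 without one had 45.5. Of those without one 29.7% had fewer than 10, against 4.44% of those with one. In the allograft the medians were 85 (179 cells) and 72 (1782 cells). In the spleen they were 49 (19 cells) and 1 (451 cells). In B cells of the spleen, 728 with and 1316 without a Ciita UMI, they were 35 and 31. In spleen dendritic cells they were 52.5 (16 cells) and 57 (23 cells), so the order was not the same in every class. A Ciita UMI was found in 35.6% of thinned spleen B cells and in 9.13%, 5.47% and 4.04% of phagocytes, against 0.935%, 0% and 0.0956% of T cells.

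Mesenchymal cells were examined where they had 0 UMIs of Ptprc. The allograft held 27 of them and the native library 737. The 27 are fewer than the 30 cells asked of other classes, so the minimum was lowered to 20 after the data were seen. H2-Aa had 188 UMIs in the allograft cells and 369 in the native cells, or 585 and 48.7 CPM, a ratio of 12.0 (10.0 to 14.4). Cd74 had 629 and 1116 UMIs, or 1957 and 147 CPM, a ratio of 13.3 (12.0 to 14.7). H2-Ab1 was 10.4-fold (8.93 to 12.2) and H2-Eb1 11.8-fold (9.52 to 14.6) higher. H2-DMa and H2-DMb1, with 26 UMIs each in the allograft cells, were 19.8-fold (11.3 to 34.4) and 15.8-fold (9.19 to 26.5) higher. All 6 members with 10 or more UMIs passed 2-fold, where 20.8% of all 12151 genes were higher and 11.8% lower by as much. Their median log2 ratio was 3.66, beside 0.16 over all genes. Ciita had 4 UMIs in each library, from 27 and 737 cells, a ratio of 23.6 (4.39 to 127). H2-Oa and H2-Ob had 0 UMIs each in the allograft and 1 each in the native cells. The cells of the 2 libraries differed in kind. Cells with 2 or more UMIs of Inmt and Ces1d numbered 508 of the 737 native cells, and all 27 allograft cells lay outside that subset. Those with Pi16 and Dpp4 numbered 460 native and 6 allograft cells. Those with 5 or more UMIs of Col2a1 and Acan, cartilage genes, numbered 5 and 10. The part of these subsets in the ratios was not tested.

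The class II RNA of the allograft mesenchymal cells was concentrated in 11 of the 27. These had 20 or more UMIs of the 4 abundant genes, 40.7% (22.4 to 61.2), against 1 of 737 native cells, 0.136% (0.00344 to 0.754), and 6 of 337 allograft T cells, 1.78% (0.656 to 3.83). The gap between low and high cells ran from 12 to 20 UMIs in the allograft. Median depth was 10655 and 10690 UMIs in the mesenchymal cells of allograft and native library, and 3839 in the T cells. With each cell thinned to 1500 UMIs, 7 of 26 allograft and 0 of 726 native cells held 10 or more, where a count of 0 allows a share of up to 0.413% by the rule of 3 counts of the total and 0.507% by the exact interval. The native cells had a median of 3 UMIs, beside 2 in native T cells at 3478.5 UMIs of depth, so their class II RNA could not be told from the background.

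The 11 high cells were set against 7 phagocyte genes, C1qa, C1qb, C1qc, Tyrobp, Fcer1g, Lyz2 and Aif1. In order of depth, the 3 shallowest held 98, 89 and 106 class II UMIs beside 22, 7 and 29 phagocyte gene UMIs. The next 3 held 20, 87 and 84 beside 2, 1 and 8. The other 5 held 255, 25, 48, 166 and 125 beside 17, 2, 1, 2 and 2. In phagocytes of the same library there were 45.9 phagocyte gene UMIs per 100 class II UMIs and in T cells 48.6, and in the 27 mesenchymal cells there were 11.3. In native T cells there were 13.2, but 1 cell held 996 of their 1647 class II UMIs. In the native mesenchymal cells there were 35.9. Markers of the phagocyte gate summed to 292 CPM in the 27 cells and 74.9 CPM in the native cells, with 2 of the 8 at 0 in the allograft. Of the markers of other presenting cells, 5 of 7 dendritic and 5 of 6 B cell genes were at 0 in the 27 cells, and the sums were 62.2 and 221 CPM, against 42.6 and 45.9 CPM in the native cells. Cells that passed another gate had been left out of both sets, so low values of these markers were in part fixed by the gates. Mesenchymal markers summed to a median of 210 UMIs per allograft cell. The part of doublets and of free RNA in single cells was not tested.

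Adding cells kept out by other gates left the contrast in the same direction. With all other gates ignored there were 59 allograft and 914 native mesenchymal cells with 0 Ptprc UMIs. Of these 28, 47.5% (34.3 to 60.9), and 16, 1.75% (1.004 to 2.83), had 20 or more class II UMIs. Of those also past the phagocyte gate, 16 of 31 allograft and 13 of 151 native cells did. The 28 allograft cells had a median of 11 phagocyte gene UMIs and the 16 native ones 54. Cartilage genes marked some of the cells. Of the 11 high cells, 3 had 5 or more UMIs of the cartilage genes, among them 1 with 199 and 1 with 186, and so did 7 of the other 16. Of the 11, 3 carried Ciita UMIs, and 0 of the other 16 did. These 3 held 2, 1 and 1 Ciita UMIs beside 22, 17 and 2 phagocyte gene UMIs. The median of the 27 cells was 2 phagocyte gene UMIs. The part of doublets in these Ciita UMIs was not tested.

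**Figure D5:**
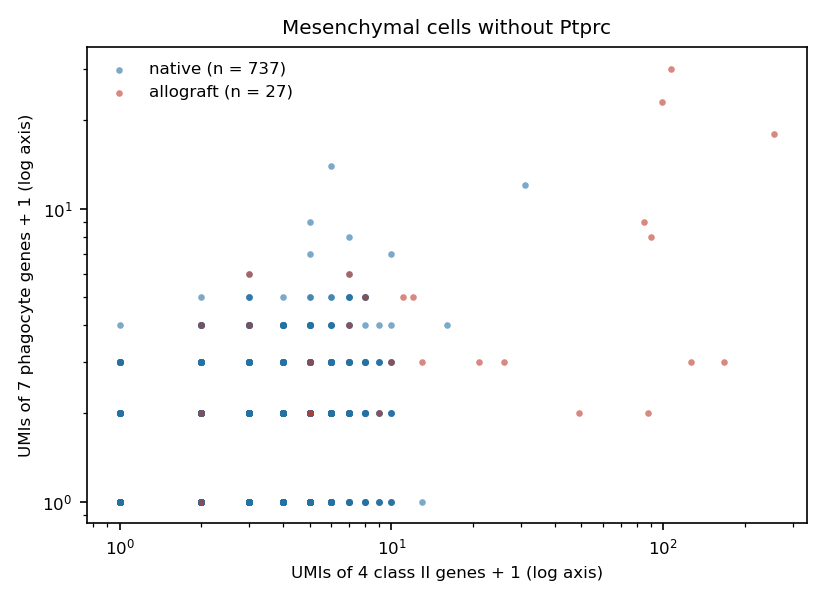
UMIs of H2-Aa, H2-Ab1, H2-Eb1 and Cd74 against UMIs of 7 phagocyte genes (each plus 1, log axes) in mesenchymal cells with 0 Ptprc UMIs, 1 point per cell, 27 allograft and 737 native. Of the allograft cells, 11 lie at 20 or more class II UMIs, with 1 to 29 phagocyte gene UMIs, and 1 native cell does.

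Epithelial cells were too few to compare. The 16 native ones held 92 UMIs of H2-Aa and 308 of Cd74, with 0 of H2-Oa and H2-Ob. A single cell reached 268 UMIs of the 4 abundant genes. The 12 native endothelial cells held from 0 to 3.

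T cells gave the measure of the background. After thinning, Cd74 was found in 42.1% of allograft, 33.3% of native and 14.6% of spleen T cells, against 98.9%, 88.4% and 54.7% of phagocytes. In neutrophils the shares were 64.6%, 57.4% and 13.2%, so those of both trachea libraries were above the T cell shares. The median trachea T cell held 2 UMIs of the 4 genes, and the median neutrophil 3 in the allograft and 2 in the native library, at depths of 1671.5 and 1943.5 UMIs. A few cells held most of the class sums. In native neutrophils 79.9% of the Cd74 UMIs were in 2% of the cells, and 1 cell held 1303 UMIs of the 4 genes. By sums, 7 of the 9 genes were lower by 2-fold or more in allograft than in native neutrophils, where 7.25% of all 7377 genes were, with a median log2 ratio of -1.57. Without the 2% of cells with the largest class II share that median was 0.44, so the sign rested on those cells. The same step moved the T cell median from -0.58 to 0.38, and 1 of 7 genes was lower by 2-fold in T cells, where 12.9% of all genes were. Spleen T cells had H2-Aa at 26.8 CPM, where spleen B cells had 3435, and H2-DMa at 40.4 CPM, where B cells had 464. They had 3.09 UMIs of H2-DMb1 per 100 of H2-DMa, where B cells had 24.8. H2-DMa was found in 5.07% of them after thinning (3.82 to 6.58).

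Other genes of the pathway were taken from a list of 35. In phagocytes 7 of the 34 with 10 or more UMIs passed 2-fold with the allograft higher and 2 with it lower, where 6.74% and 9.66% of all genes did. Irf1, which interferon gamma induces and which acts on the interferon-driven promoter of Ciita, stood at 114 against 43.1 CPM, a ratio of 2.64 (2.39 to 2.92). Irf8, a regulator of monocytes and dendritic cells, was 2.37-fold (2.21 to 2.55) higher. Genes of lysosomal proteases were also higher. Ctss, whose product trims the invariant chain, stood at 3299 against 1253 CPM, and Ctsd and Ctsl were 2.66-fold and 2.51-fold higher. Lag3, a receptor gene for class II, was 2.91-fold (2.05 to 4.29) higher. Irf4 was 2.84-fold (2.52 to 3.21) and Cd83, which keeps class II at the surface, 2.40-fold (2.34 to 2.47) lower. Beside these, Ciita differed by 1.49-fold and H2-Aa by 1.05-fold.

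The RFX subunits that anchor CIITA were less than 2-fold apart in phagocytes, and of their intervals only that of Rfxap lay above 1. Rfx5 had a ratio of 1.02 (0.750 to 1.41), Rfxank of 1.24 (0.942 to 1.64) and Rfxap of 1.36 (1.14 to 1.62). Ifngr1, the interferon gamma receptor chain that binds the ligand, had 1.12 (1.05 to 1.19), and H2-DMb2 0.716 (0.637 to 0.804). In dendritic cells 5 of 31 listed genes passed 2-fold with the allograft higher and 4 with it lower, where 17.7% and 7.74% of all genes did. Irf8 was 4.55-fold (3.90 to 5.35) and Irf1 4.50-fold (3.02 to 6.98) higher. Prdm1, with 3 against 55 UMIs, was 9.53-fold (3.58 to 55.1) lower, Irf4 3.11-fold (1.88 to 5.70), Ctsd 2.16-fold (1.41 to 3.53) and H2-DMb2 2.09-fold (1.44 to 3.17). Rfx5 had 5 and 9, Rfxank 5 and 0 and Rfxap 10 and 21 UMIs in the dendritic cells of allograft and native library. Ctss was 1.31-fold (1.15 to 1.49) lower.

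In mesenchymal cells without Ptprc, 10 of 31 listed genes passed 2-fold with the allograft higher and 4 with it lower, beside 20.8% and 11.8% of all genes. Socs1, a brake on interferon signals, was 2.50-fold (1.62 to 3.61) and Ctss 6.05-fold (3.03 to 10.7) higher. H2-DMb2 had 12 UMIs against 4, a ratio of 65.5 (21.4 to 301). Rfx5 and Rfxank rested on 3 and 4 allograft UMIs, and both intervals held 1. Irf8 was 8.38-fold (3.67 to 34.7) and Ctsl 2.64-fold (2.30 to 3.06) lower, and Cd40 had 0 UMIs against 156. Irf1 was not higher there, at 106 against 150.5 CPM.

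The members were also compared by their pattern over the 19 groups of library and class with 30 or more cells. Pearson's r of log2(CPM + 1) with the sum of the 4 abundant genes was 0.91 for H2-DMa, 0.94 for H2-DMb1, 0.81 for Ciita, 0.73 for H2-Ob and 0.64 for H2-Oa. Among genes outside the 9, the nearest to the sum were Pkib (0.94), Cd83 (0.93), Upb1 (0.92), Ly86 and Cd86 (both 0.91). The nearest to Ciita were Kynu and Ly86 (both 0.90), Kmo (0.89), Rnase6 (0.88) and Plekho1 (0.87). The groups share 3 libraries, so these values are descriptions only.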

How the data were processed

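The authors deposited raw UMI counts per gene and barcode, 1 matrix per source. Per the file headers the software was Cell Ranger 3.1.0, and the build was mm10 per the submitters' processing notes. The annotation and the use of strand are not given in the sources used here. Members and gene lists were chosen with earlier results of these data known. Kept barcodes had at least 500 genes and at most 20% mitochondrial UMIs. Doublets called by scrublet (scanpy 1.11.5) were removed, which were 0.802%, 0.173% and 0.124% of the barcodes of allograft, native and spleen, against 3.69%, 3.70% and 3.88% under an assumed rate of 0.8% per 1000 barcodes. How many doublets remained was not measured. Each of 13 classes needed 2 or 3 distinct markers (mesenchymal also 5 UMIs), and cells past several gates were left out. UMIs were summed per library and class and divided by the class total (CPM). Ratios have 0.5 UMI added and exact conditional binomial intervals, CPM exact Poisson and shares exact Clopper-Pearson intervals (scipy 1.17.1), all 95%. PCR copies are collapsed by UMIs, and the intervals cover counting error only. Thinning to 1500 UMIs left out 350, 187 and 141 cells. No test was made, since each source is 1 pooled library.

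Named pathway genes are 9 fixed ones (Ifi30 among them was not analysed here) and listed genes 2-fold or more apart with 30 or more UMIs, and for likeness the 5 nearest genes with 20 CPM or more in a group. Some genes that these rules select are counted but not reported here. Subsets within classes, the 7 phagocyte genes, the thresholds of 10 of 1500 and 20 raw UMIs, and the minimum of 20 mesenchymal cells were set after the data were seen. Positions are those of GENCODE M21 and promoters those of RefSeq (GRCm38.p6). The computation was tested on simulated Poisson counts for phagocytes, allograft over native, where 95.7% of the intervals of 13148 genes held the true ratio. Such counts follow the model of the intervals, so the simulation does not cover the clustering of UMIs in cells. Alternatives were other cell filters, doublet rules, gates, scalings, minimums, thinning depths and the leaving out of the highest 2% of cells. Python 3.11.15, numpy 2.4.6 and pandas 2.3.3 were used.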

Additional observations from a re-analysis of the deposited data

Results flagged for a closer look

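Of the 9 genes, 5 had ratios of allograft over native above 1 in phagocytes and below 1 in dendritic cells, with counting intervals on opposite sides of 1. In dendritic cells their log2 ratios were -0.73 (H2-Aa), -0.72 (H2-Ab1), -1.002 (H2-Eb1), -1.03 (Cd74) and -0.35 (H2-DMb1), and in phagocytes 0.08, 0.21, 0.04, 0.06 and 0.15. With 1 library per source the difference between the classes was not tested. The phagocyte values of H2-Aa, H2-Eb1 and Cd74 were below 0 with median-of-ratios scaling (-0.03, -0.07 and -0.05).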

How the results depend on the processing

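No paired analysis was possible because each source is 1 matrix with no map from cells to the 4 samples, and for the same reason no sample could be left out. The median log2 ratio of the 9 genes over all cells (0.46) was 0.35 with median-of-ratios scaling, 0.33 as a mean of per-cell CPM, 0.37 after thinning to 1500 UMIs and 0.53 without the highest 2% of cells. In phagocytes (0.077) it was 0.059 with the stricter cell filter, 0.14 with stricter gates, -0.034 with median-of-ratios scaling, 0.061 with totals without mitochondrial and ribosomal genes, 0.23 as a mean of per-cell CPM, 0.22 after thinning, 0.11 without the highest 2% of cells and 0.094 with fewer markers in the phagocyte gate. In dendritic cells (-0.35) it was -0.80 after thinning. In mesenchymal cells without Ptprc (3.66) it was 4.07 as a mean of per-cell CPM, 4.56 after thinning and 3.22 with other gates ignored. The cause of these shifts was not tested. Median-of-ratios scaling shifted all log2 ratios of dendritic cells by 0.22.

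The share of allograft phagocytes with 10 or more of 1500 UMIs (93.6%) was 94.8% with the stricter cell filter, 96.8% at a threshold of 5 and 89.0% at 20, and the native share (71.7%) was 76.5% and 64.7% at these thresholds. The native share of mesenchymal cells with 20 or more UMIs (0.136%) was 0% at 50 UMIs and 1.75% with other gates ignored. Thresholds, ignored gates, the phagocyte gate with fewer markers and the minimum of 20 cells were chosen after seeing the data.

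Of the log2 ratios of single genes under alternatives, 126 of 126 in dendritic cells, 89 of 89 in mesenchymal cells, 99 of 99 over all cells, 121 of 126 in phagocytes, 101 of 109 in neutrophils and 79 of 94 in T cells kept their sign. The neutrophil and T cell values of the other sign came from 7 genes each. In neutrophils the median of -1.57 and these genes reversed without the highest 2% of cells: H2-Aa (0.26), H2-Ab1 (0.42), Cd74 (0.44), H2-DMa (0.71) and H2-DMb1 (1.35), the median being 0.44. H2-DMa also reversed there after thinning (0.49), and in T cells H2-DMb1, the gene 2-fold apart there, reversed without the highest 2% of cells (0.38). H2-Aa (0.26), H2-Ab1 (0.61), H2-Eb1 (1.04) and Cd74 (0.46), less than 2-fold apart, also changed sign in T cells by that step. Depth limits H2-Oa, H2-Ob and Ciita most, with 44 to 1112 UMIs in trachea phagocytes.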
